A study of Mus musculus with 46 samples.

Results

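Most of the genes described here encode the structural shell of the sperm tail or proteins anchored in it. These are Odf1 and Odf2 of the outer dense fibres, the fibrous sheath scaffolds Akap3 and Akap4, and their partners Ropn1, Ropn1l and Cabyr. The actin-bundling protein Fscn3 was grouped with them, and its place in the sperm was not examined here. Every probe annotated to one of these 8 symbols was taken, which gave 16 of the 25697 probes on the array and 8 of the 16593 genes with a symbol. Odf2 and Akap4 had 4 probes each, Cabyr had 3, and the other genes had 1 each. The values are levels on the log2 scale in 46 arrays of mouse testis RNA. Brightness allowed tests of 14 of the 16 probes. The Ropn1l probe ILMN_2773964, with a mean log2 value of 7.75, and the Cabyr probe ILMN_2667761, with 7.71, were among the dimmest 40% and were left out of the tests of single probes. The comparisons between probes of the same gene still included that Cabyr probe.

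Adult male Swiss mice drank water with acrylamide, a small reactive amide that forms in fried and baked food, at 0.001, 0.01, 0.1, 1 or 10 µg/ml for 1, 6 or 12 months, and control mice drank water without it. The mice were 3 to 6 months old at the 1-month collection, 11 to 12 months at the 6-month collection and 16 to 17 months at the 12-month collection, so length of exposure and age moved together. RNA from individual testes was hybridised to Illumina mouse Ref-8 BeadChips. Each group held 3 arrays at 1 and 6 months, except 0.1 µg/ml at 1 month with 2. At 12 months the control, 0.001 and 0.01 µg/ml groups held 2 arrays each, 0.1 µg/ml held 3, and 1 and 10 µg/ml held 1 each. The labels do not say whether every testis came from a different mouse, so the p-values below measure the spread between these samples.

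The tail of a mammalian sperm carries accessory structures around its microtubule core. Outer dense fibres run along the midpiece and principal piece and stiffen the tail, and the fibrous sheath encloses them in the principal piece and holds protein kinase A and glycolytic enzymes in place. Their proteins are made late in spermatogenesis, in haploid spermatids, when most transcription is about to stop and many messages are stored before they are translated. Akap4 protein is made as a precursor that is cut to its mature form and binds Akap3, and both scaffolds anchor protein kinase A through its regulatory subunits. Ropn1, Ropn1l and Cabyr carry a domain like that of those subunits and bind the same scaffolds.

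The 2 scaffold genes are shown by their promoters because these shared a long identical stretch. RefSeq (GRCm38.p6) gave 10 promoter windows for 6 of the 8 genes, each running from 250 bases before to 50 after a gene's start. In these windows the longest run common to 2 different genes was the 20 bases shared by Akap3 (chr6:126852848-126853147, plus strand) and Akap4 (chrX:7067265-7067564, plus strand), printed in capitals below, and the next longest was 14 bases, between Odf2 and Akap3.
Akap3 promoter: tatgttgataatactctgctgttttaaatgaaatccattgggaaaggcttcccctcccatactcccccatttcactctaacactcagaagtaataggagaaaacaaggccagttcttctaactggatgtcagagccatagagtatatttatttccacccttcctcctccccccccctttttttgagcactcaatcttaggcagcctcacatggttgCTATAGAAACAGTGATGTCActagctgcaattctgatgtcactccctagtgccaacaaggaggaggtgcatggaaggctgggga
Akap4 promoter: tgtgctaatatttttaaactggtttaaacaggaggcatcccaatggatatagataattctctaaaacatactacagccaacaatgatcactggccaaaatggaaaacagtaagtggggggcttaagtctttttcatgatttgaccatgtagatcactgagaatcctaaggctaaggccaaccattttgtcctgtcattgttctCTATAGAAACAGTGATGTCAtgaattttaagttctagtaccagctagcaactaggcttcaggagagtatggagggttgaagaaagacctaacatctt
The run ended 14 bases before the start in Akap3 and 27 bases before it in Akap4. Searched on both strands, it occurred in 2 of 32544 promoter windows of the same length, those of these genes (0.00615%). It was noticed after the sequences were seen. It contains the letters TGATGTCA, found in 3.37% of all windows. TGACGTCA, the palindrome bound by CREB-family factors such as CREM, was in 1.8% of all windows and in none of the 10. CCAAT was in 37.4% of all windows, in that of Akap3, in 1 of the 2 of Akap4 (the one printed) and in 3 of the 4 of Odf2, and TATAAA was in 13.6% of all windows and in that of Fscn3.

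Before the results, 2 features of the arrays have to be stated. Array numbers in the labels run from 1 to 46, by time and within time by dose, and since the chip format holds 8 arrays, runs of 8 consecutive numbers are called sets here. No label names a slide. At 1 month set 1 held all control and 0.001 µg/ml arrays and replicates 1 and 2 of 0.01 µg/ml, set 2 held the rest but replicate 3 of 10 µg/ml, and that array lay in set 3. Set 3 held all control and 0.001 µg/ml arrays of 6 months and replicate 1 of 0.01 µg/ml, set 4 held the other 0.01 µg/ml arrays with 0.1 and 1 µg/ml, and set 5 held 10 µg/ml of 6 months together with the 12-month controls. Median intensities before normalization ran from 107.8 to 132.5 in set 4, the lowest, against 107.8 to 221.4 over all arrays. One array stands apart, that of the 1-month group of 0.001 µg/ml, replicate 3. Its mean correlation with the others was 0.844, where theirs were 0.974 or higher. Of the 14 tested probes, 9 lay outside the range of the other 1-month arrays on it, where 70.4% of all tested probes did.

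At 6 months, 9 of the 14 tested probes were lower at 10 µg/ml than in controls and none was higher (limma adjusted p under 0.05). Across all 15419 tested probes 17.4% passed in either direction and 8.37% were lower. The 9 came from Odf1, Odf2, Akap4, Ropn1 and Fscn3, and every Akap4 probe was among them. The median difference of the 14 probes was −0.54, against 0.02 for all tested probes. On 10 probes every array of 10 µg/ml lay below every control (20.8% of all tested probes). At 0.1 µg/ml 3 probes were lower (background 6.03%, and 2.87% lower), at 1 µg/ml 1 probe was lower (0.311%, and 0.162% lower), and at 0.01 and 0.001 µg/ml none passed, where no probe of the array did (0%). At an unadjusted p under 0.05, 5 member probes passed at 0.01 µg/ml and 1 at 0.001 µg/ml, of 1316 and 140 on the array. With the 1-month array that stands apart left out, 11, 10 and 6 member probes passed at 10, 0.1 and 1 µg/ml, where 5073, 2852 and 1361 of all tested probes did. When set also entered that fit as a random block, 11 members passed at 10 µg/ml, of 2223 probes, and none at 0.1 or 1 µg/ml, where no probe of the array did (limma, 2419 and 1463 at an unadjusted p under 0.05). Over the dose ranks at 6 months, the slope was negative for 9 probes and positive for 1 (background 26.5%).

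These differences coincided with a step in array number. From replicate 1 of 0.01 µg/ml at 6 months, in set 3, to replicates 2 and 3 of the same dose, in set 4, 6 of 14 probes moved by more than 0.5 log2, against 8.4% of all tested probes. The size of this step rests on replicate 1, whose median intensity before normalization, 221.4, was the highest of all arrays. For Ropn1, Fscn3 and Odf2 ILMN_1226849 that array lay above every 6-month control, but not for Odf1 or Akap3. In set 5, where 10 µg/ml at 6 months could be set beside the controls of 12 months, the 14 differences ran from −0.24 to 0.18 and none passed (limma adjusted p, background 0%, 1034 probes of the array at an unadjusted p under 0.05). Those groups differ in dose, exposure time and age. Within set 4 the slope from 0.01 to 1 µg/ml ran from −0.03 to 0.19 per dose step and passed for no probe (background 0%, 1028 at an unadjusted p under 0.05). With set as a term in the fit, the difference between 10 µg/ml and control at 6 months could not be estimated. For 10 µg/ml against control at 6 months and for the slope over all doses of 6 months, dose and set therefore cannot be told apart. For 0.1 and 1 µg/ml the term could be fitted through the 3 arrays of 0.01 µg/ml, of which replicate 1 alone lies in set 3. No member passed in that fit (limma, no probe of the array either, 284 and 302 at an unadjusted p under 0.05). The values on both sides of the step are given with each gene.

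**Figure D1:**
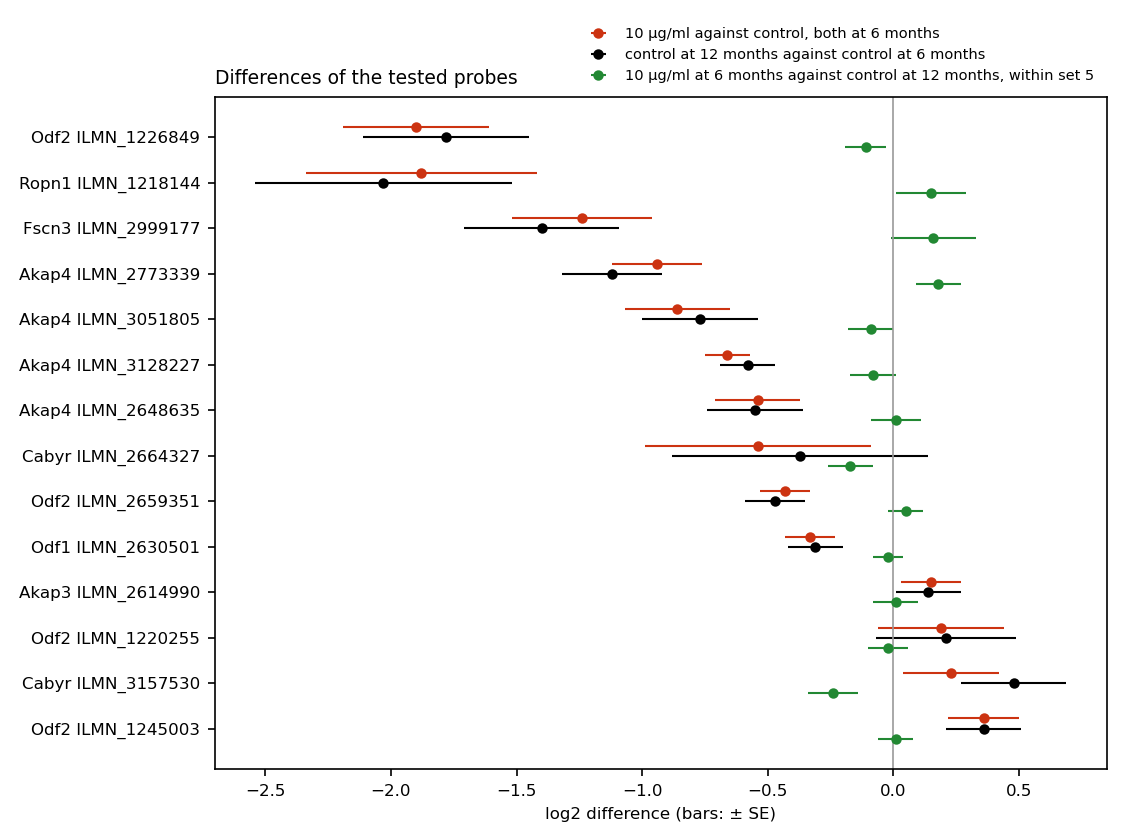
Log2 differences of the 14 tested probes with their standard errors, for 10 µg/ml against control at 6 months (red), control at 12 months against control at 6 months (black) and 10 µg/ml at 6 months against control at 12 months within set 5 (green). Red and black share the 6-month controls, which lie in set 3, while the groups set against them lie in set 5. The lowest red and black values are −1.90 and −2.03, while the green differences lie between −0.24 and 0.18.

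Odf1, a cysteine-rich core protein of the outer dense fibres, had log2 levels of 14.39, 14.22 and 14.39 in the 6-month controls. At 10 µg/ml they were 13.94, 14.03 and 14.05. The groups did not overlap, and the difference was −0.33 ± 0.10 (SE, adjusted p = 0.0239). The slope over dose at 6 months was −0.08 ± 0.02 per dose step (adjusted p = 0.00145). All 7 arrays of set 3 at 6 months lay between 14.22 and 14.39, the 8 of set 4 between 13.96 and 14.11, and the 11 arrays of 12 months between 13.97 and 14.10. The call at 10 µg/ml was lost on leaving out replicate 1 or 3 of the controls (adjusted p = 0.0974 and 0.0839) or replicate 1 or 3 of 10 µg/ml (0.0816 and 0.053). These levels lie close to the top of the scale, which ends at 14.45 in these data.

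Odf2, the scaffold of the outer dense fibres that also has a centriolar form, cenexin, was read by 4 probes that did not move together. ILMN_1226849 had levels of 11.50, 11.25 and 11.49 in the 6-month controls. At 10 µg/ml it had 9.63, 9.52 and 9.40. That is a difference of −1.90 ± 0.29 (adjusted p = 0.000241), the largest of the 14 probes. At 0.1 µg/ml the 3 arrays had 10.05, 9.85 and 10.51, a difference of −1.28 ± 0.29 (adjusted p = 0.0141). At 1 µg/ml they had 9.94, 10.31 and 9.96, a difference of −1.34 ± 0.29 (adjusted p = 0.0388). Every array of these groups lay below every control. With set as a fixed term the sign of both differences turned, to 0.45 ± 0.29 at 0.1 µg/ml and 0.38 ± 0.29 at 1 µg/ml (adjusted p = 1 for each). At 0.01 µg/ml the set 3 array had 11.74, above the controls, and the set 4 arrays had 10.09 and 9.95. The call at 1 µg/ml was lost whenever one control or one 1 µg/ml array was left out (adjusted p = 0.0781 to 0.154), and that at 0.1 µg/ml when control replicate 1 or 3 (0.0517 and 0.0537) or replicate 1 or 2 of 0.1 µg/ml (0.0511 and 0.0698) was. Within set 5 this probe differed by −0.11 ± 0.08 between 10 µg/ml at 6 months and the 12-month controls, which had 9.60 and 9.66.

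The other Odf2 probes had smaller differences, in both directions. ILMN_2659351 had 13.96, 14.13 and 13.84 in the 6-month controls. At 10 µg/ml it had 13.55, 13.63 and 13.47, lower by a difference of −0.43 ± 0.10 (adjusted p = 0.00573). ILMN_1245003 had 13.38, 13.53 and 13.59 in controls and 13.77, 13.92 and 13.90 at 10 µg/ml. Its groups did not overlap, with a difference of 0.36 ± 0.14 that did not pass (adjusted p = 0.0644). It passed without the 1-month array that stands apart (adjusted p = 0.00282, SE 0.09), on which this probe had 14.36, its highest level. Its slope over dose at 6 months was 0.08 ± 0.02 (adjusted p = 0.0144), the positive call among the members. That call was lost without replicate 1 of the 6-month controls (0.07, adjusted p = 0.0563). ILMN_1220255 had 10.53 to 10.87 in controls and 10.81 to 10.99 at 10 µg/ml, overlapping groups with a difference of 0.19 ± 0.25 (adjusted p = 0.652). Its highest level, 12.54, was also on the array that stands apart. All 4 Odf2 probes are annotated to the same transcript record.

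**Figure D2:**
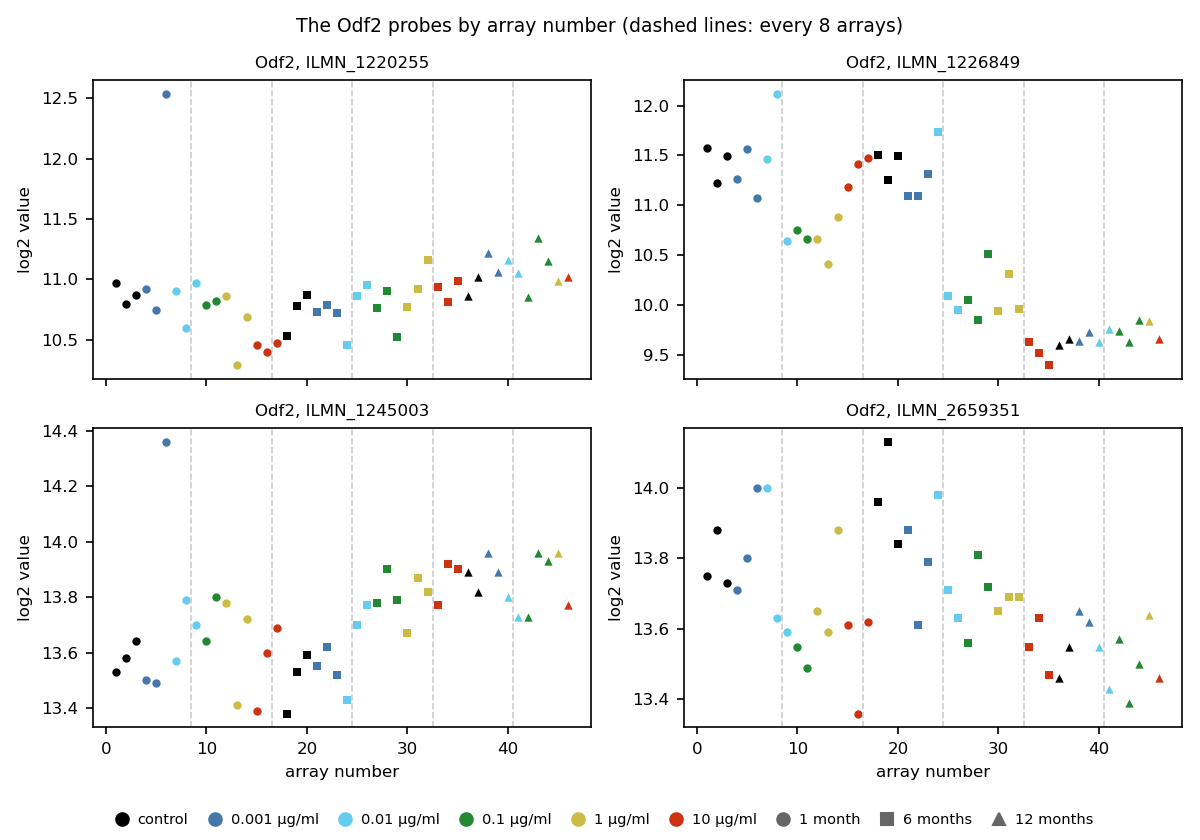
Log2 levels of the 4 Odf2 probes by array number, coloured by dose and shaped by time, with dashed lines between sets of 8 arrays. ILMN_1226849 lies between 10.41 and 12.12 up to array 24 and between 9.40 and 10.51 from array 25 on, while ILMN_1245003 moves from a median of 13.58, with the array that stands apart left out, to a median of 13.82.

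At 6 months the Odf2 probes differed from each other in their slope over dose in 5 of their 6 pairs. The genes were chosen with this difference between Odf2 probes already known, so the p-values describe it and are no independent support. The difference of slopes between ILMN_1226849 and ILMN_1245003 was −0.45 per dose step (adjusted p = 0.00045, two-sided permutation test over the 18 arrays, unadjusted p = 1e-05, the smallest that 100000 resamples can give). ILMN_1226849 also fell more steeply than ILMN_2659351 by −0.31 (adjusted p = 0.000675 in the same permutation test), although both were called lower. Over all genes with several probes, 14 of 45 tests passed, 4 at 1 month, 8 at 6 months and 2 at 12 months, and 16 passed before adjustment. Among those at 6 months was the bright Cabyr probe ILMN_2664327 against the dim ILMN_2667761 (adjusted p = 0.0021, permutation test). That dim probe stayed between 7.62 and 7.79 on all arrays. The same step in array number lies under the 6-month slopes. At 1 month and 12 months no pair with ILMN_1226849 passed.

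Akap3, a scaffold of the fibrous sheath, had log2 levels of 12.29, 12.48 and 12.72 in the 6-month controls and 12.77, 12.51 and 12.67 at 10 µg/ml. The groups overlapped, with a difference of 0.15 ± 0.12 (adjusted p = 0.42). Over all 46 arrays its level stayed between 12.17 and 12.89, and its highest level was on an array of 1 µg/ml at 6 months. It passed in 12 months against 1 month only, where it was higher by 0.23 ± 0.06 (adjusted p = 0.00338).

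Akap4, the X-linked major structural protein of the fibrous sheath, was lower at 10 µg/ml than in 6-month controls with all 4 probes. ILMN_2773339 had 13.35, 13.01 and 13.26 in controls and 12.26, 12.42 and 12.13 at 10 µg/ml, a difference of −0.94 ± 0.18 (adjusted p = 0.00112). ILMN_3051805 had 9.96, 9.88 and 10.14 in controls and 9.00, 9.23 and 9.18 at 10 µg/ml (difference −0.86 ± 0.21, adjusted p = 0.00604). ILMN_3128227 had 13.28, 13.07 and 13.28 in controls and 12.57, 12.66 and 12.40 at 10 µg/ml (difference −0.66 ± 0.09, adjusted p = 0.000164). For these 3 probes each array of 10 µg/ml lay below each control. ILMN_2648635 had 11.63, 12.18 and 12.14 in controls and 11.60, 11.47 and 11.26 at 10 µg/ml, also without overlap but with the first control close to the treated arrays (difference −0.54 ± 0.17, adjusted p = 0.0258). Its call was lost without control replicate 2 or 3 (adjusted p = 0.117 and 0.107) or without replicate 2 or 3 of 10 µg/ml (0.0527 and 0.134). At 0.1 µg/ml ILMN_2773339 had 12.42, 12.45 and 12.70 (difference −0.69 ± 0.18, adjusted p = 0.023). That call was lost without control replicate 1 or 3 or without replicate 1 or 2 of 0.1 µg/ml (adjusted p = 0.0779 to 0.103), and with set as a fixed term the sign turned, to 0.19 ± 0.25 (adjusted p = 1). Its 0.01 µg/ml arrays had 13.35 in set 3 and 12.57 and 12.38 in set 4, and its 12-month controls had 12.12 and 12.06.

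After the step the Akap4 probes did not keep 1 pattern. At 12 months ILMN_2773339 ran from 12.06 in a control to 12.90 in the 10 µg/ml array, with a slope of 0.16 ± 0.04 per dose step that did not pass (adjusted p = 0.133). ILMN_3128227 stayed between 12.58 and 12.80 over the same 11 arrays, and the slopes of these probes differed by 0.14 (adjusted p = 0.0162, permutation test). Those 12-month slopes rest on 1 array each at 1 and 10 µg/ml, and the controls lie in set 5 while both of those arrays lie in set 6. At 1 month ILMN_2648635 had a slope of −0.10 per dose step (adjusted p = 0.0341), the single member call of that trend (background 5.26%). It had 12.33, 12.13 and 12.19 in the 1-month controls and 11.60, 11.56 and 11.87 at 10 µg/ml. The other Akap4 probes had slopes from −0.01 to 0.00 there, and each of the 3 pairs with ILMN_2648635 differed (adjusted p = 0.0021 to 0.0352, permutation test). The call of that slope was lost on leaving out any of the 3 controls of 1 month, replicate 1 or 2 of 1 µg/ml, or replicate 1 or 2 of 10 µg/ml (adjusted p = 0.0533 to 0.115). It was also lost with set as a fixed term (−0.09 ± 0.07, adjusted p = 0.997), with set as a random block and the array that stands apart left out (0.0975), without a filter (0.0531), with the arrays of 1 month alone (0.198) and with restored intensities (0.0998, and 0.11 after normexp). The median of ILMN_2648635 was 12.14 in set 1 and 11.68 in set 2.

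**Figure D3:**
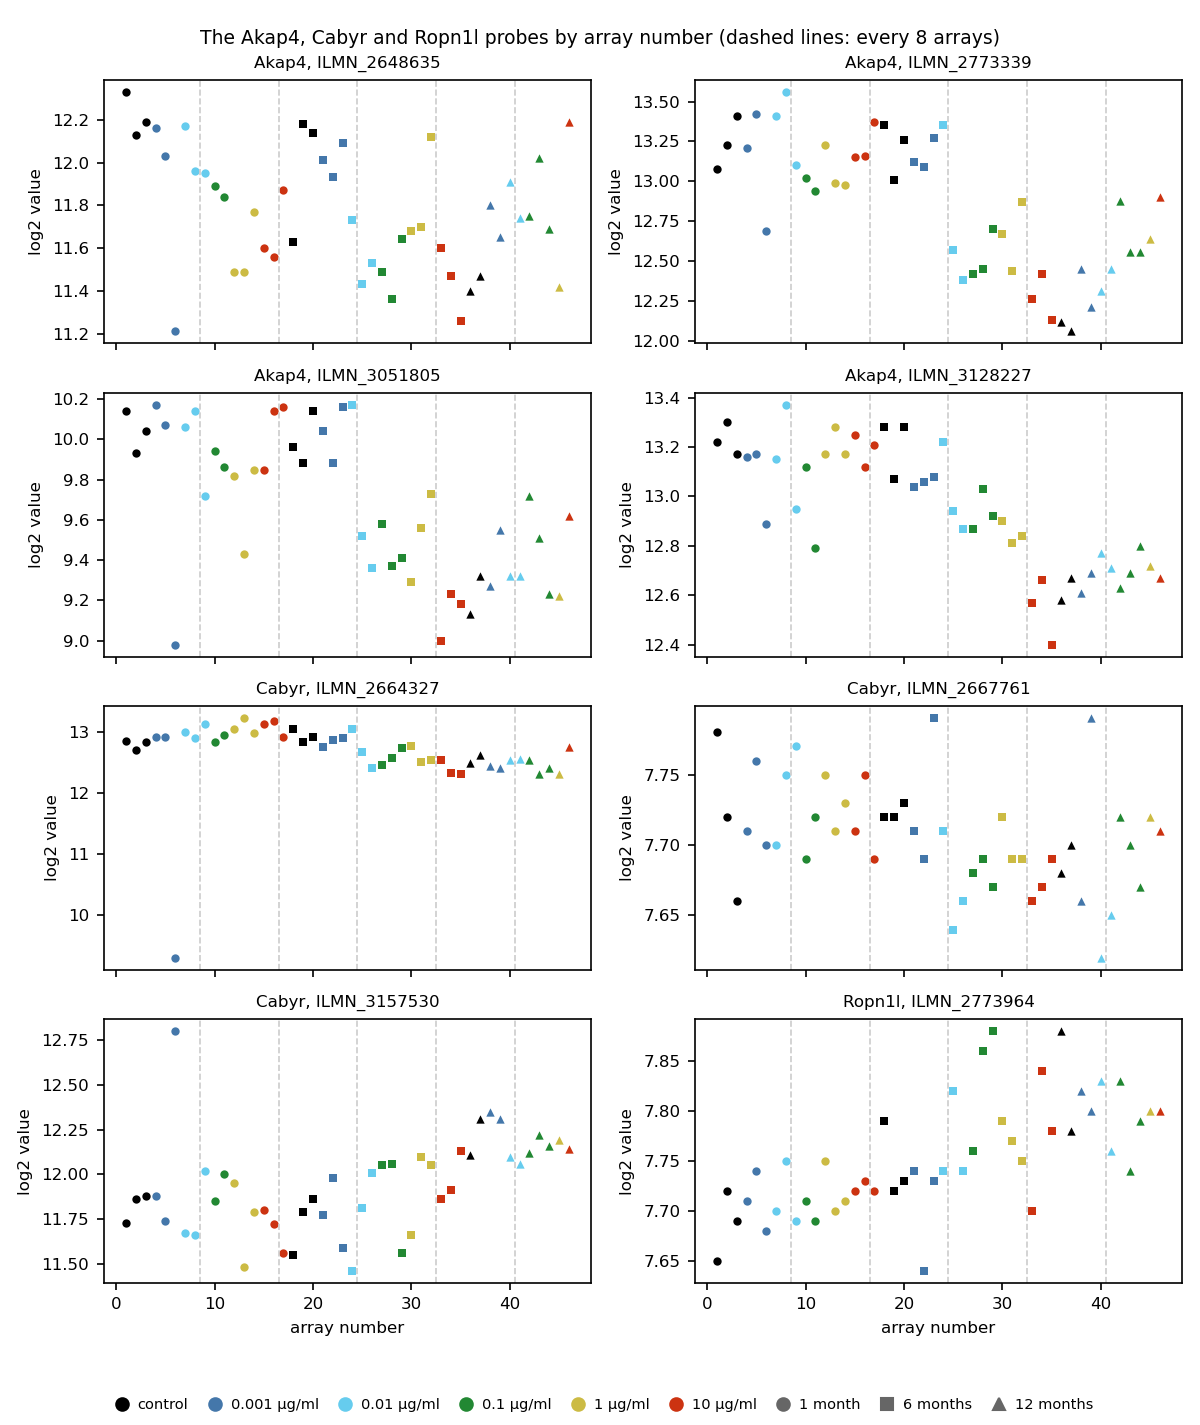
Log2 levels of the Akap4, Cabyr and Ropn1l probes by array number, coloured by dose and shaped by time, with dashed lines between sets of 8 arrays and a separate scale in each panel. Akap4 ILMN_2773339 lies at 12.94 or above up to array 24, the array that stands apart excepted at 12.69, and at 12.90 or below from array 25 on. Cabyr ILMN_2664327 has 9.29 and ILMN_3157530 has 12.80 on the array that stands apart.

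Ropn1, a sperm protein of the protein kinase A anchoring complex of the fibrous sheath, had log2 levels of 12.09, 11.62 and 11.46 in the 6-month controls. At 10 µg/ml it had 9.92, 9.93 and 9.68, a difference of −1.88 ± 0.46 (adjusted p = 0.00604). At 0.1 µg/ml it had 10.25, 9.99 and 10.38, a difference of −1.52 ± 0.46 (adjusted p = 0.0446). At 1 µg/ml it had 10.53, 10.15 and 10.25, and the difference of −1.41 ± 0.46 did not pass (adjusted p = 0.111). In all 3 groups each array lay below each control. The call at 0.1 µg/ml was lost without any one array of the 6-month controls or of 0.1 µg/ml (adjusted p = 0.0817 to 0.171), and also without several arrays of other groups (up to 0.0515). With set as a fixed term its sign turned, to 0.47 ± 0.73 (adjusted p = 1). At 0.01 µg/ml the array of set 3 had 12.12, the highest of 6 months, and those of set 4 had 10.19 and 10.09, a step of −1.98, the largest among the members. All 22 arrays numbered 25 to 46 had 9.48 to 10.53. The 23 arrays numbered 1 to 24, without the one that stands apart, had 10.86 to 12.53. That array had 8.86, the lowest level of all.

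Ropn1l, a paralogue of Ropn1, was not measurable in the same way. Its probe ILMN_2773964 stayed between 7.64 and 7.88 on all 46 arrays, within the dimmest 40% of probes, and was not tested.

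Cabyr, a calcium-binding protein of the fibrous sheath that is phosphorylated on tyrosine during capacitation, gave differences of opposite sign with its 2 bright probes. ILMN_2664327 had log2 levels of 13.05, 12.84 and 12.92 in the 6-month controls and 12.54, 12.33 and 12.32 at 10 µg/ml. The groups did not overlap, yet the difference of −0.54 ± 0.45 did not pass (adjusted p = 0.449). On the array that stands apart this probe had 9.29, where the other 16 arrays of 1 month had 12.70 to 13.23. Without that array the same difference passed (−0.54 ± 0.11, adjusted p = 0.000503). ILMN_3157530 had 11.55, 11.79 and 11.86 in controls and 11.86, 11.91 and 12.13 at 10 µg/ml, a difference of 0.23 ± 0.19 (adjusted p = 0.423, or 0.219 with that array left out). The slopes of these probes over dose at 6 months differed by −0.15 (adjusted p = 0.0226, permutation test). On the array that stands apart they went opposite ways too, ILMN_3157530 having 12.80 against 11.48 to 12.02 in the other arrays of 1 month. The dim probe ILMN_2667761 stayed between 7.62 and 7.79. The annotation assigns the 3 Cabyr probes to different transcript records of the gene.

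Fscn3, the testis form of the actin-bundling protein fascin, had log2 levels of 11.06, 10.82 and 10.67 in the 6-month controls. At 10 µg/ml it had 9.51, 9.85 and 9.48, a difference of −1.24 ± 0.28 (adjusted p = 0.00382). The groups did not overlap, and at 0.1 and 1 µg/ml the differences were −0.51 ± 0.28 and −0.64 ± 0.28, which did not pass (adjusted p = 0.297 and 0.245). At 0.01 µg/ml the set 3 array had 11.37 and those of set 4 had 10.16 and 9.90. This probe already varied within 1 month. It had 11.30, 10.87 and 11.12 in controls and 9.97, 10.38 and 10.13 at 1 µg/ml, without a call at that dose (background 0.298%). Those controls lay in set 1 and those 1 µg/ml arrays in set 2, and over all doses this probe had 10.86 to 11.30 in set 1 and 9.97 to 10.76 in set 2. The 12-month controls had 9.20 and 9.69, and the 11 arrays of 12 months spanned 9.20 to 10.32.

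**Figure D4:**
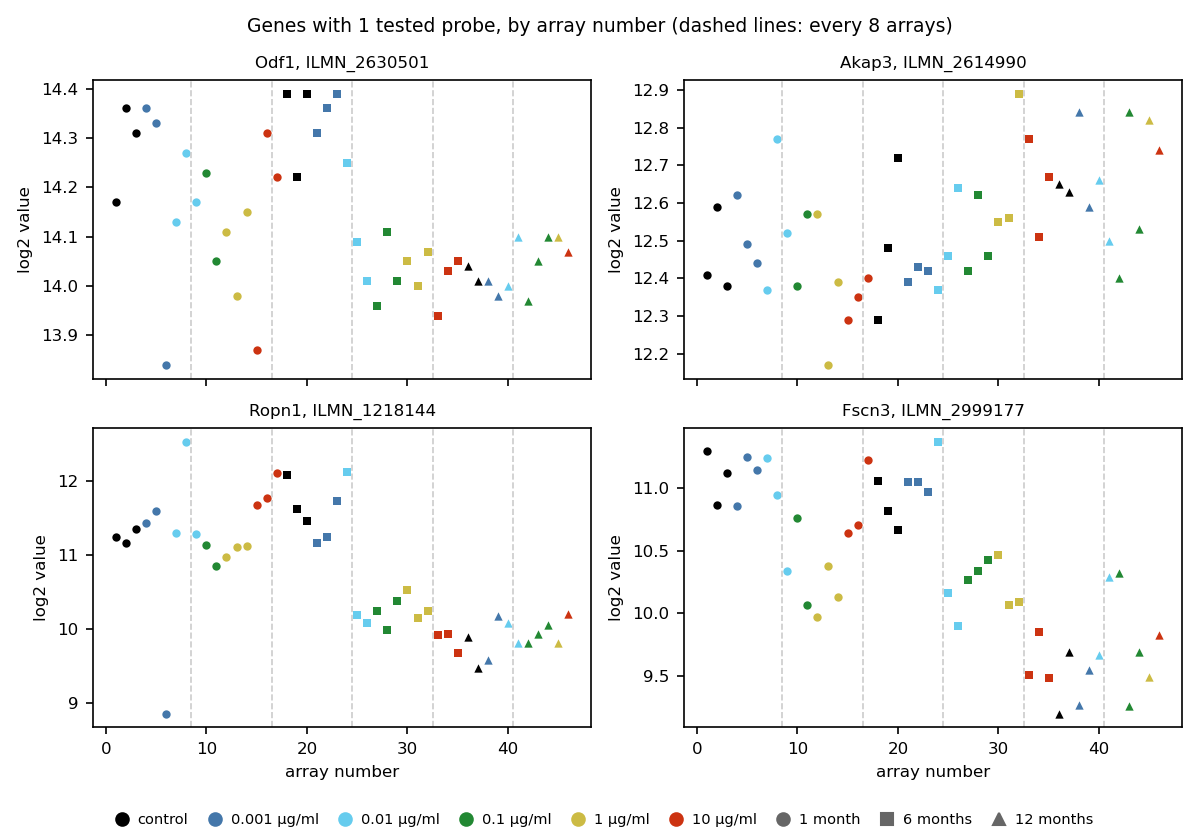
Log2 levels of Odf1, Akap3, Ropn1 and Fscn3 by array number, coloured by dose and shaped by time, with dashed lines between sets of 8 arrays. Ropn1 drops from 12.12 on array 24 to 10.19 on array 25, both of 0.01 µg/ml at 6 months, while Akap3 stays between 12.17 and 12.89 throughout.

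At 1 month no member probe passed for any dose against control, where the background from 10 down to 0.001 µg/ml was 0.0713%, 0.298%, 0.00649%, 0% and 0% (limma). At an unadjusted p under 0.05, 2, 3, 4, 0 and 3 of 14 member probes passed from 10 down to 0.001 µg/ml, where 1126, 1655, 912, 308 and 3967 of all 15419 tested probes did. The median difference of the 14 probes was −0.09, −0.18, −0.20, −0.04 and −0.11 in that order, against −0.01 to 0.00 for all tested probes. Ropn1 at 10 µg/ml had 11.68, 11.77 and 12.11 against 11.25, 11.16 and 11.36 in controls, without overlap and in the direction opposite to that at 6 months (difference 0.60 ± 0.46, adjusted p = 0.923). Odf2 ILMN_1226849 differed by −0.07 ± 0.29 and Akap4 ILMN_2773339 by −0.01 ± 0.18.

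At 12 months no member probe passed for any dose either, where the background from 10 down to 0.001 µg/ml was 0.0195%, 0.0324%, 0.0389%, 0.013% and 0% (limma). Unadjusted, 2, 1, 2, 0 and 0 of 14 passed in the same order of doses, of 1420, 845, 1317, 1113 and 1139 on the array. With 1 array at 10 µg/ml, which the fit assumes to vary like the other groups, Akap4 ILMN_2773339 had 12.90 against 12.12 and 12.06 in controls (difference 0.81 ± 0.27, adjusted p = 0.267) and Akap4 ILMN_2648635 had 12.19 against 11.40 and 11.47 (0.75 ± 0.25, adjusted p = 0.276). Odf2 ILMN_1226849 had 9.66 against 9.60 and 9.66.

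Between times, averaged over the 6 doses, several of these probes were lower with longer exposure and age. From 1 to 6 months 5 of 14 passed, all lower (background 17.3%, and 7.91% lower), and from 6 to 12 months 6 passed, 5 of them lower (background 9.49%, and 4.24% lower). Of the calls from 1 to 6 months, that of Ropn1 was lost on leaving out most single arrays (limma adjusted p = 0.0897 without replicate 2 of 0.01 µg/ml at 1 month). That of Akap4 ILMN_3051805 was lost without many of them (0.0672 without replicate 3 of 0.01 µg/ml at 6 months). From 1 to 12 months 10 passed, 7 lower and 3 higher (background 41.2%, and 18.3% lower). The differences were −1.43 for Odf2 ILMN_1226849 (adjusted p = 4.52e-08), −1.34 for Ropn1 (3.57e-05), −1.09 for Fscn3 (1e-06) and −0.66 for Akap4 ILMN_2773339 (1.83e-06). The 3 that rose were Cabyr ILMN_3157530 by 0.34 ± 0.09 (adjusted p = 0.0046), Akap3 by 0.23 and Odf2 ILMN_1245003 by 0.20 ± 0.07 (adjusted p = 0.0228). Here the lower values of 6 months belong to the arrays from number 25 on, and all 12-month arrays are numbered 36 to 46, so time and array number cannot be told apart.

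The dose responses themselves were also compared between times. For 10 µg/ml against control, 4 of 14 probes were lower at 6 months than at 1 month (background 6.38%), Ropn1 with the largest difference, −2.48 ± 0.65. The slope over dose differed between 6 and 1 month for 5 probes (background 11.1%), between 12 and 1 month for 1 (3.88%) and between 12 and 6 months for 8 (18.8%). No member slope passed at 12 months itself (limma, background 0.0195%). All 6-month values in these comparisons hold the step between sets 3 and 4.

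In control mice alone no member passed between 1 and 6 months (limma, background 0%, no member and 359 probes of the array at an unadjusted p under 0.05), while 8 were lower and none higher at 12 than at 6 months (background 17.4%, and 7.91% lower). Ropn1 differed by −2.03 ± 0.51 (adjusted p = 0.00745), Odf2 ILMN_1226849 by −1.78 ± 0.33 (adjusted p = 0.000792), Fscn3 by −1.40 ± 0.31 (adjusted p = 0.00337) and Akap4 ILMN_2773339 by −1.12 ± 0.20 (adjusted p = 0.00062). The same 4 probes differed by −1.88, −1.90, −1.24 and −0.94 between 10 µg/ml and control at 6 months. Both comparisons share the 6-month controls, which lie in set 3. The 12-month controls and the 10 µg/ml arrays of 6 months both lie in set 5. Time and set therefore cannot be told apart in the first comparison, nor dose and set in the second. Odf1, called lower at 10 µg/ml, differed by −0.31 ± 0.11 in the controls and did not pass (adjusted p = 0.0538).

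How closely probes of 1 gene follow each other was read within arrays 1 to 24 and within arrays 25 to 46, because many member levels stepped between these blocks. Each block still holds several sets, and differences between those sets remain in the correlations. In sets 4, 5 and 6, for example, the means were 12.56, 12.25 and 12.67 for Akap4 ILMN_2773339 and 9.48, 9.25 and 9.44 for ILMN_3051805. Over 15 pairs in each block, Akap4 ILMN_2773339 and ILMN_3051805 had r = 0.73 and rho = 0.65 in arrays 1 to 24 (n = 24, adjusted permutation p = 0.00045 and 0.00795), with r = 0.57 after leaving out the 2 farthest arrays. In arrays 25 to 46 (n = 22) they had r = 0.59 and rho = 0.48 (adjusted permutation p = 0.0184 and 0.0954), and r = 0.45 without the 2 farthest. Odf2 ILMN_1226849 and ILMN_2659351 had r = 0.59 and rho = 0.64 in arrays 25 to 46 (adjusted permutation p = 0.0184 and 0.0261, r = 0.51 without the 2 farthest) and r = 0.29 and rho = 0.35 in arrays 1 to 24 (adjusted permutation p = 0.278 and 0.272). Odf2 ILMN_1226849 and ILMN_1245003 had r = −0.16 and −0.33 in the 2 blocks, neither past the threshold (adjusted permutation p = 0.55 and 0.183), with rho = −0.32 and −0.37. Without the array that stands apart, arrays 1 to 24 gave r = −0.17 and rho = −0.26 (adjusted permutation p = 0.56 and 0.474). Without the 2 arrays farthest from the median of ILMN_1226849, r was −0.46 and −0.45 in the 2 blocks. In arrays 1 to 24 it was −0.67 when the array that stands apart was omitted as well as 2 farthest arrays. No p-value was computed for these trimmed values. Cabyr ILMN_2664327 and ILMN_3157530 had r = −0.82 in arrays 1 to 24, which became −0.25 without the array that stands apart, so it rests on that array, and r = −0.53 with rho = −0.41 in arrays 25 to 46 (adjusted permutation p = 0.038 and 0.125).

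A list of other genes drawn up for the sperm tail did not show the members' direction at 10 µg/ml against control at 6 months. The list was read by the brightest probe of each gene, whereas every tested member probe was counted, so the counts are not alike. Of 41 genes on the array 36 were tested, and 2 rose and 4 fell (background 17.4%, and 8.37% lower). Their median difference was 0.01, against 0.02 for all probes. Gpx4, the selenoenzyme of the mitochondrial capsule of the midpiece, had −0.82 ± 0.14 (adjusted p = 0.000623). Oaz3, the spermatid form of antizyme, had −0.75 ± 0.20 (adjusted p = 0.00966), the calcium channel gene Catsper1 −0.69 ± 0.19 (adjusted p = 0.0137) and the glutathione transferase Gstm5 −0.68 ± 0.14 (adjusted p = 0.00222). Ldhc, the germ cell lactate dehydrogenase, had 0.46 ± 0.11 (adjusted p = 0.0048) and the spermatid kinase Tssk6 0.37 ± 0.10 (adjusted p = 0.0153). At 0.1 µg/ml 2 rose and 4 fell (background 6.03%), at 1 µg/ml none passed (0.311%), and over the dose ranks at 6 months 4 rose and 6 fell (26.5%). Between times, 3 rose and 7 fell from 1 to 6 months (background 17.3%), 9 rose and 9 fell from 1 to 12 months (41.2%), and 1 rose and 5 fell from 6 to 12 months (9.49%).

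Markers of the cells in the tissue also moved at 10 µg/ml against control at 6 months, where 17.4% of all tested probes passed and 8.37% were lower. Those controls lie in set 3 and those 10 µg/ml arrays in set 5, so dose and set cannot be told apart for the markers either. In bulk testis RNA, fewer cells of a type and less RNA per cell cannot be told apart. For each list the levels were summed before taking the log2, and the result is called the summed level here. Such a sum is ruled by the brightest genes of the list, so opposite changes of single genes can be hidden in it. The tissue had the markers of testis on every array: the summed level of 6 elongating spermatid markers was 15.58 to 16.3 over all arrays. For those 6 markers 1 rose and 2 fell at 10 µg/ml against control at 6 months. The differences were 0.53 for Prm1, −1.02 for Tnp1 and −1.44 for Tnp2, and the summed level was 15.81 to 15.85 in controls and 15.71 to 15.84 at 10 µg/ml. Of 7 round spermatid markers none rose and 4 fell, with summed levels of 14.71 to 14.74 in controls and 14.32 to 14.37 at 10 µg/ml. Of 6 spermatocyte markers 2 rose and 2 fell (15.99 to 16.11 and 16.15 to 16.2), and of 4 spermatogonial markers 1 fell (10.57 to 10.6 and 10.49 to 10.64). Among somatic cells, 4 of 8 Sertoli cell markers rose (14 to 14.19 and 14.39 to 14.44), as did 2 of 4 of peritubular myoid and smooth muscle (11.6 to 11.73 and 12.27 to 12.52) and 1 of 3 of endothelium (10.2 to 10.22 and 10.25 to 10.44), while none of 6 Leydig cell markers (13.83 to 14.26 and 14.42 to 14.56) and none of 4 macrophage markers (10.12 to 10.18 and 10.04 to 10.21) passed. Of 2 tested epididymis markers none passed, and the defining markers Lcn5, Defb42 and Adam7 were among the dimmest 40% of probes. The summed epididymis level was nevertheless 12.85 to 13.02 in controls and 13.44 to 13.82 at 10 µg/ml, without overlap. Of its 5 genes Lcn2 was bright (0.73 ± 0.31, adjusted p = 0.0971), and the other genes had mean levels of 7.68 to 7.79, near the lowest value of the scale, 7.55. None of 3 blood markers (10.43 to 11.05 and 10.90 to 11.98) or of 1 tested adipose marker passed (10.32 to 10.56 and 10.24 to 10.30 for the adipose sum). In the 12-month controls the summed round spermatid level was 14.45 to 14.47, the Sertoli cell level 14.34 to 14.45, the Leydig cell level 14.63 to 14.66 and the epididymis level 13.44 to 13.80. The part of these cell types in the members' differences was not tested.

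For each gene with a tested probe, the 3 probes of other genes whose levels ranked most like it over the 46 arrays were named, out of 14488 probes, as a description in which the shared step in array number is included. Ropn1 was closest to 1700016C15Rik (Spearman rho = 0.96), Ankef1 and Bcl2l14 (both 0.95), and Fscn3 to AI837181 (0.94), Chchd6 and Derl2 (both 0.93). For Cabyr ILMN_2664327 they were Bcas2 (0.91), Lpgat1 (0.90) and Ppp4r1 (0.89), and for Akap4 ILMN_3128227 Dazap1 (0.90), Ccdc136 and Smc5 (both 0.89). For Odf2 ILMN_1245003 they were Serbp1 (0.88), Sidt2 and Tmem131l (both 0.87), and for Odf1 Aamp (0.84), Mkrn1 (0.82) and Cop1 (0.80). Akap3 had the lowest values, with Ppm1g and Ivns1abp (both 0.77) and Zc3h3 (0.76).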

How the data were processed

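Total RNA of 46 testes was hybridised to Illumina mouse Ref-8 BeadChips. The deposited table holds log2 values made with lumi, per the submitters' processing notes, and a second deposited table holds intensities not yet normalized. Neither the version of lumi nor its background correction and normalization is given in the sources used here. In 33 of 45 intensity columns the probes stood in another order, which was restored by rank (tolerance 0.001) for alternatives only, and 1 column was not used. Of 25697 probes, 23978 had 1 gene symbol in the platform annotation, 0 had several and 1719 had none.

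The log2 values were fitted with limma 3.58.1 in R 4.3.3 (lmFit, eBayes), with 18 group means over all 46 arrays. The dimmest 40% of probes by mean level were left out (15419 tested), and p-values were adjusted by Benjamini-Hochberg over all tested probes, with calls at 0.05. The dose trend is the slope over dose rank from 0 (control) to 5 (10 µg/ml). Slopes of probes of the same gene were compared by permutation (100000 resamples). On simulated data for 10 µg/ml against control at 6 months, 75% of log2 changes of 0.5 and 91% of changes of 1 were recovered over 15419 probes, and 6 unchanged probes passed. The simulated noise was independent between arrays and held no step between sets, so these rates do not bear on telling dose from set. The number of arrays, 1 to 3 a group, limits the precision. Replicate numbers of the labels did not pair samples (6 of 35 correlations of same-numbered deviations above 0.1, from −0.14 to 0.29). The members, lists and tests were chosen with earlier results of these data known, as were the named genes: every member probe, from the list of tail genes the 4 largest rises and falls at 10 µg/ml, and the 3 most similar probes. The comparisons in control mice alone, within sets and within blocks of arrays, and the shared promoter run, were added after seeing the data. Alternatives tried are listed with their effect in the closing section.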

Additional observations from a re-analysis of the deposited data

Results flagged for a closer look

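Several member probes had a dose response that differed between times when the difference itself was tested (interaction contrasts in limma, adjusted over all tested probes). For 10 µg/ml against control, the value at 6 months minus that at 1 month was −2.48 for Ropn1 (adjusted p = 0.0213), −1.82 for Odf2 ILMN_1226849 (0.0113), −0.93 for Akap4 ILMN_2773339 (0.0253) and −0.63 for Akap4 ILMN_3128227 (0.00839), where 6.38% of all tested probes passed. The Ropn1 call was lost without control replicate 2 of 1 month, or without control replicate 1 or 10 µg/ml replicate 3 of 6 months (adjusted p = 0.0533 to 0.0723). That of Akap4 ILMN_2773339 was lost without any one of several control or 10 µg/ml arrays of both times (0.0578 to 0.0821).

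The slope per dose step at 6 months minus that at 1 month (11.1% of all tested probes passed in either direction) was −0.48 for Ropn1 (adjusted p = 0.00538), −0.30 for Odf2 ILMN_1226849 (0.0074), −0.17 for Akap4 ILMN_2773339 (0.0105), −0.17 for Akap4 ILMN_3051805 (0.028) and −0.12 for Akap4 ILMN_3128227 (0.00205). The call of Akap4 ILMN_3051805 was lost without any one of several control or 10 µg/ml arrays of both times (limma adjusted p = 0.0548 to 0.0575). The slope at 12 months exceeded that at 1 month (3.88% passed) by 0.19 for Akap4 ILMN_2648635 (adjusted p = 0.029).

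The slope at 12 months exceeded that at 6 months for 8 probes (18.8% passed in either direction): by 0.44 for Ropn1 (adjusted p = 0.0214), 0.40 for Odf2 ILMN_1226849 (0.00222), 0.32 for Fscn3 (0.00802), 0.09 for Odf1 (0.0308), and 0.34, 0.22, 0.18 and 0.13 for Akap4 ILMN_2773339, ILMN_3051805, ILMN_2648635 and ILMN_3128227 (0.000173, 0.0128, 0.0115 and 0.0022). The Odf1 call was lost without control replicate 1 or 3 or 10 µg/ml replicate 1 of 6 months, among other arrays. That of Akap4 ILMN_2648635 at 12 minus 1 month was lost without control replicate 1 or 10 µg/ml replicate 1 or 2 of 1 month, among others. The step between arrays 24 and 25 falls within the 6-month doses. With set as a random block and the array that stands apart left out, 0 of the 5 slopes of 6 minus 1 month and 4 of the 8 of 12 minus 6 months kept their calls, those 4 being the Akap4 probes, and 3 of the 4 differences at 10 µg/ml did, that of Akap4 ILMN_2773339 being lost. At 1 month all arrays are numbered below 25, and at 12 months all above it.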

How the results depend on the processing

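The 9 calls at 10 µg/ml and 10 calls of the dose trend at 6 months stayed at 9 to 11 and 10 to 12 under each alternative that kept all arrays of 6 months and could estimate them. With set as a fixed term neither could be estimated. As a random block over all 46 arrays, set had a correlation of −0.002, so that fit was close to the main one. These alternatives therefore cannot separate dose from set. The calls were 0 for 10 µg/ml against the 12-month controls within set 5 and 0 for the slope within set 4, both added after seeing the data. Leaving out the array that stands apart raised the calls to 10 at 0.1 µg/ml and 6 at 1 µg/ml at 6 months, 1 each at 10 and 1 µg/ml at 1 month, 3 for the trend at 1 month, 1 for that at 12 months, 8 for 6 against 1 month, 11 for 12 against 6 months, and 8, 8 and 2 for the differences of 6 minus 1 month (10 µg/ml and trend) and 12 minus 1 month (trend). Over all probes it raised the calls at 10 µg/ml at 6 months from 2679 to 5073. Array weights, whose estimation stopped before convergence, gave 10, 10 and 8 calls at 1, 0.1 and 0.01 µg/ml at 6 months, 3, 4 and 1 at 10, 1 and 0.1 µg/ml at 1 month, 2 at 10 µg/ml at 12 months, 6 and 1 for the trends at 1 and 12 months, 9 for 6 against 1 month, 11 for 12 against 6 months, and 9, 10 and 2 for the same differences between times.

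With set as a fixed term 0 calls remained at 0.1 and 1 µg/ml at 6 months, for the trend at 1 month and for its 12 minus 1 month difference, and the signs turned for Odf2 ILMN_1226849 (0.38 at 1 µg/ml and 0.45 at 0.1 µg/ml), Ropn1 (0.47 at 0.1 µg/ml) and Akap4 ILMN_2773339 (0.19 at 0.1 µg/ml), each with an adjusted p of 1. With set as a random block and the array that stands apart left out, an alternative added later, there were 0 calls at 0.1 and 1 µg/ml at 6 months, for the trend at 1 month and for the trend of 6 minus 1 month, and 4 for 12 minus 6 months. Of 63 calls of single probes, 44 were kept there and 19 lost. Without a filter there were 0 calls at 1 µg/ml at 6 months and for the trend at 1 month. With the dimmest 60% left out there were 2 for that trend and 2 for its 12 minus 1 month difference. With the arrays of 1 time alone there were 7 calls at 0.1 and 0 at 1 µg/ml at 6 months, and 0 and 1 for the trends at 1 and 12 months. Restored intensities, with or without normexp, gave 0 for the trend at 1 month, 0 for its 12 minus 1 month difference and 3 for 6 against 1 month, and the former gave 2 and 1 differing probe pairs at 1 and 12 months. In control arrays alone there were 0 calls for 6 against 1 month. The causes were not tested.

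With each array left out in turn the calls ran from 7 to 11 at 10 µg/ml, 0 to 6 at 1 µg/ml, 0 to 10 at 0.1 µg/ml and 0 to 3 at 0.01 µg/ml at 6 months, 0 to 1 at 10 and 1 µg/ml and 0 to 4 at 0.001 µg/ml at 1 month, 0 to 4, 9 to 11 and 0 to 1 for the trends at 1, 6 and 12 months, 3 to 8, 10 to 14 and 5 to 11 for 6 against 1, 12 against 1 and 12 against 6 months, and 2 to 8, 4 to 8, 0 to 2 and 6 to 10 for the differences between times in the order given above. Without replicate 1 of 0.01 µg/ml at 6 months, the one of that dose in set 3, 3 probes were called at that dose. With the replicate number as a block (replicate block) there were 10 calls at 10 µg/ml and 10 for the trend at 6 months, and of the 63 single calls 1 was lost, that of Ropn1 at 6 against 1 month (adjusted p = 0.0549). Fits on the arrays of the compared times alone were not run for the comparisons between times.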
